A study of Mus musculus with 8 samples.

Results

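The genes described here are the 10 that encode the ligands, receptors and latency proteins of transforming growth factor β (TGF-β) in the mouse: the ligands Tgfb1, Tgfb2 and Tgfb3, the receptors Tgfbr1, Tgfbr2 and Tgfbr3, and the latent TGF-β binding proteins Ltbp1, Ltbp2, Ltbp3 and Ltbp4. They were chosen by name, with earlier results of these data known, and all 10 were found among the 19460 genes of the deposited table. The series sequenced polyadenylated RNA of mouse marrow stromal cells, which adhere in culture and include osteoblast precursors, in 8 libraries, 4 per genotype. The wild-type and the Lgr6-null cells both had a C57BL/6 background, and the Lgr6-null cells were homozygous for Lgr6-GFP-ires-CreERT2, an allele with a reporter and an inducible recombinase at Lgr6, an R-spondin receptor. All cultures, controls included, had been grown to 80 to 90% confluence and then kept for 10 days in osteogenic medium holding 10% fetal bovine serum, 4 mM β-glycerophosphate and 50 μg/mL of ascorbic acid. The comparison asks how RNA in differentiating cultures differs with the loss of Lgr6. Whether the libraries of a genotype are separate animals or cultures is not in the labels, and p-values reflect spread between libraries that may be technical alone.

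TGF-β is made as a precursor whose cut propeptide, the latency-associated peptide, stays wrapped around the ligand and keeps it from its receptors. LTBP1, LTBP3 and LTBP4 bind this latent complex covalently and tether it to fibrillin and fibronectin fibres, while LTBP2 does not bind it. Integrins, proteases and thrombospondin release the ligand, which binds the type II receptor TGFBR2, recruits the type I receptor TGFBR1 and leads to phosphorylation of SMAD2 and SMAD3. TGFBR3, betaglycan, is a co-receptor that presents ligand, TGF-β2 above all, and in shed form captures it. Bone matrix is a large store of latent TGF-β, which acts on osteoblast precursors and is released when osteoclasts resorb bone.

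Values are normalized counts, read counts per gene divided by 1 size factor per library, and a gene was called higher or lower in Lgr6-null at a Benjamini-Hochberg adjusted p under 0.05 in limma on log2(normalized count + 1), over all 14294 genes tested. Recovered reads per library ran from 7629968 to 21135173, with Lgr6-null library M4 the shallowest and set apart from the others on the second principal component (8.35% of the variance, against 74.1% for the first, which separated the genotypes). Lgr6 itself had 76.2 ± 19.2 normalized counts in Lgr6-null against 1287 ± 303 in wild-type (SD, n = 4 each), with no overlap (two-sided exact permutation p = 0.0286, the smallest that 4 against 4 libraries allow). Markers of several cell types were present. The deposited table held no gene with fewer than 11 reads in total, so a marker at 0 in every library could not appear in it. Of 12 lymphoid, erythroid and megakaryocyte markers listed, 5 were in the table. Marrow stromal markers summed to between 12289 and 13155 normalized counts in Lgr6-null and between 7942 and 11659 in wild-type. Cxcl12 made up most of the sum (mean 8577 against 5280). Of 8 such markers 2 were called higher and 1 lower, and their mean log2 level overlapped, at 9.28 to 9.54 against 9.44 to 9.54. Macrophage markers, led by Lyz2, were far more abundant, with sums of 419353 to 633236 in Lgr6-null against 277726 to 326196 in wild-type, and 13 of 18 were called higher. Markers of osteoblasts and osteocytes, led by Col1a1, summed to between 288281 and 366212 in Lgr6-null and between 1648718 and 2173499 in wild-type, and 14 of 14 were called lower. In bulk RNA, fewer cells of a type and less RNA per cell cannot be told apart, and this holds for every gene below.

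Among the 10 genes, Ltbp1 and Tgfbr3 were lower in Lgr6-null cultures, and Tgfbr2 and Tgfb3 were higher. Ltbp1 fell to 38.9% of its wild-type level, Tgfbr3 to 72.6%, while Tgfbr2 rose 1.64-fold and Tgfb3 1.69-fold. The other 6, Tgfb1, Tgfb2, Tgfbr1, Ltbp2, Ltbp3 and Ltbp4, were not called. Thus 4 of 10 were called where 25.7% of all genes tested were (13.0% higher and 12.7% lower), and the genotypes did not overlap for 2 of 10 (1 higher, 1 lower), against 29.1% of all genes tested (14.4% higher, 14.7% lower). Their median log2 fold change was -0.09, beside 0.00 for all genes tested. Neither share was compared with the background by a test.

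**Figure D1:**
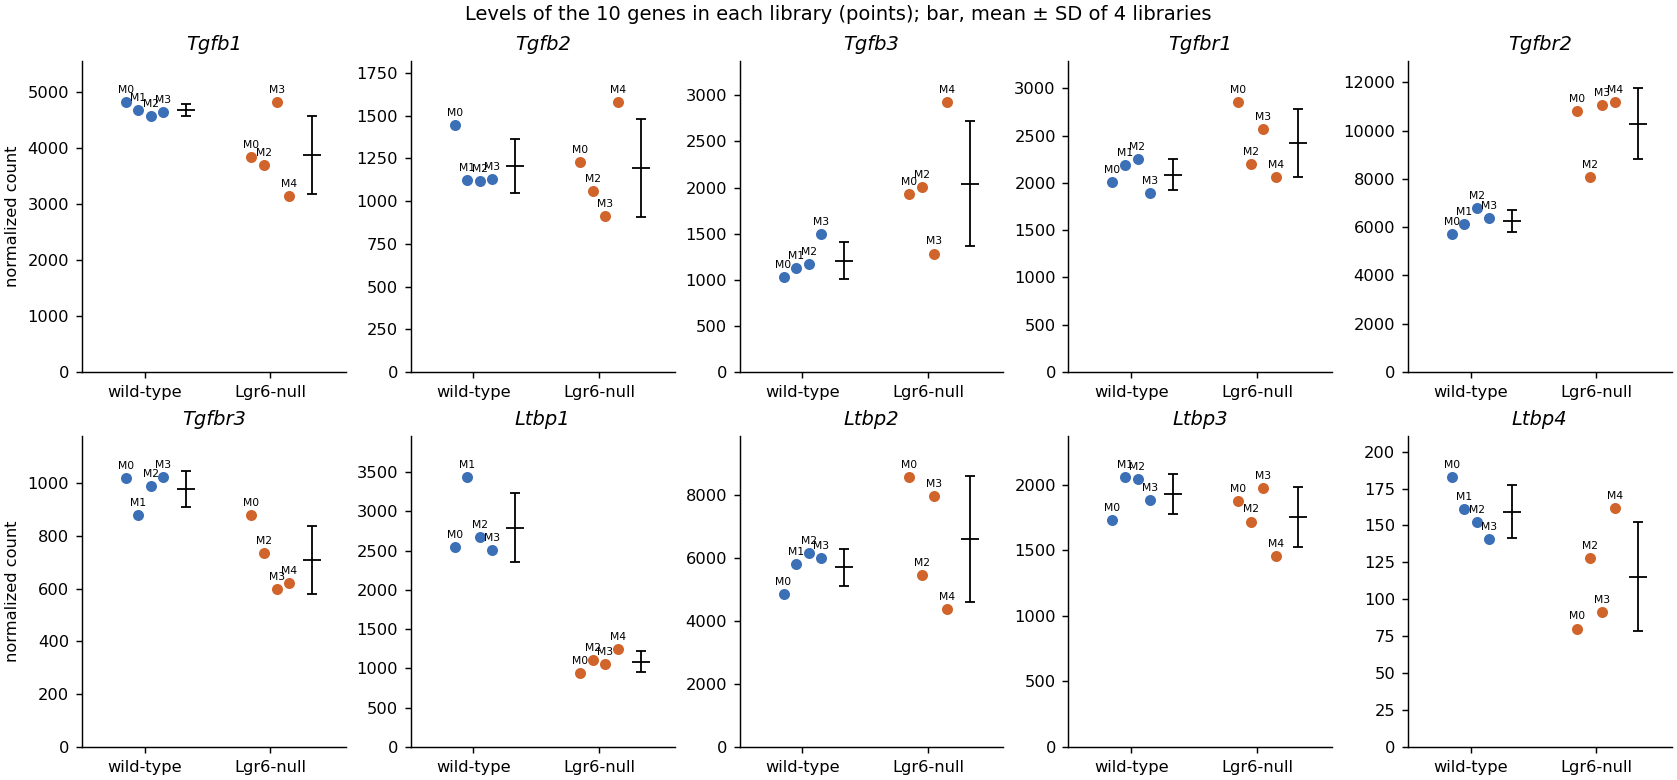
Normalized counts of the 10 genes in each library, wild-type and Lgr6-null (points, 4 libraries each; bar, mean ± SD; linear axes from 0). Ltbp1 and Tgfbr2 are separated between genotypes, at 939 to 1252 against 2514 to 3443 and at 8079 to 11199 against 5722 to 6805, and the other 8 overlap.

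**Figure D2:**
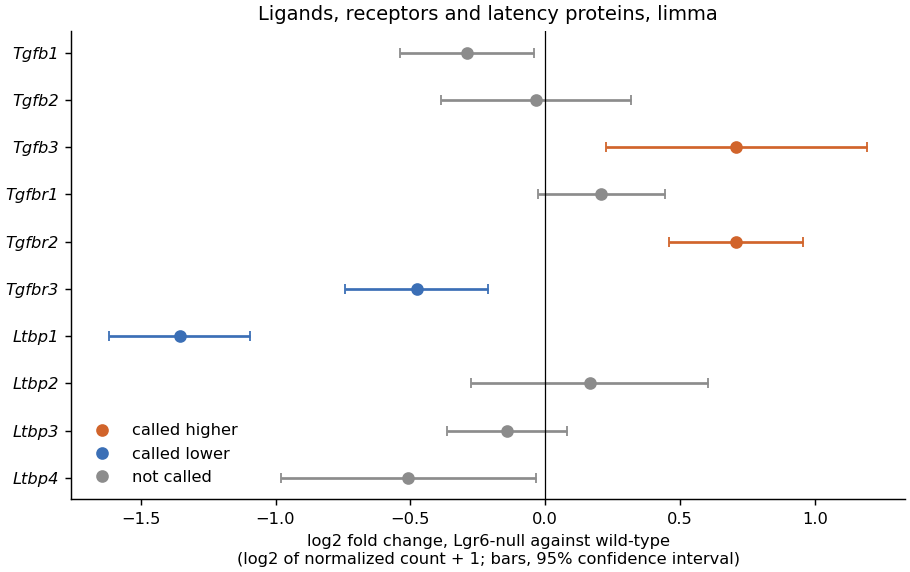
log2 fold change of each gene, Lgr6-null against wild-type, on the scale of log2(normalized count + 1), with its 95% confidence interval from limma; colour marks the call. Ltbp1 lies at -1.36, Tgfbr3 at -0.48, and Tgfb3 and Tgfbr2 both at 0.71.

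The ligands differ in how their latent forms can be opened. The propeptides of TGF-β1 and TGF-β3 carry an Arg-Gly-Asp (RGD) site that αv integrins grip, and that of TGF-β2 does not. The coding stretches around these sites are shown because they separate Tgfb3, the called ligand, and Tgfb1 from Tgfb2. They were read from the GENCODE M21 annotation on GRCm38, 5′ to 3′ on the coding strand, with the RGD codons in capitals. In Tgfb1 the codons lie at chr7:25697142-25697150 on the plus strand, starting at codon 244 of 390, and in Tgfb3 at chr12:86062165-86062173 on the minus strand, starting at codon 261 of 412. The 2 annotated coding transcripts of Tgfb2, of 414 and 442 codons, hold 0 such sites.
Tgfb1: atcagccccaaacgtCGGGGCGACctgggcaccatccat
Tgfb3: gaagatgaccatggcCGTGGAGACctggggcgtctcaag

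Tgfb3 (ENSMUSG00000021253, chromosome 12) stood at 1032, 1127, 1172 and 1500 normalized counts in the wild-type libraries, M0 to M3 in order. The Lgr6-null values were 1930 in M0, 2010 in M2, 1284 in M3 and 2932 in M4. Library M4 was the highest of all, and Lgr6-null M3 fell inside the wild-type range, so the genotypes overlapped. The means were 1208 ± 203 in wild-type and 2039 ± 678 in Lgr6-null (SD, n = 4 each), a log2 fold change of 0.71 (SE 0.22, 95% confidence interval 0.22 to 1.19, limma adjusted p = 0.0378). The call was near the threshold: without library M4 the log2 fold change was 0.51 (adjusted p = 0.0595), and without wild-type M0, M1 or M2 or Lgr6-null M0 or M2 the adjusted p ran from 0.0710 to 0.0931. The call was also lost with scaling to all pan-mesenchymal genes (0.29, adjusted p = 0.195) and to the abundant ones (0.36, adjusted p = 0.0959). Exons of other genes on the opposite strand, those of Gm37804 and Gm48008, cover 12.4% of its exon bases, and the strand setting of the counting is not given in the sources used here. Opposite-strand exons also cover 9.34% of Ltbp2, 2.14% of Tgfb2 and 2.01% of Ltbp3. Exons of Gm43422 on the same strand cover 4.54% of Tgfbr3. The part of such overlap in the counts was not tested.

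Tgfb1 (ENSMUSG00000002603, chromosome 7), the ligand most abundant in bone, had the tightest wild-type values of the ligands. It was at 4826, 4672, 4563 and 4647 normalized counts in wild-type M0 to M3, and at 3829, 3692, 4812 and 3148 in Lgr6-null M0, M2, M3 and M4. Of the Lgr6-null libraries, M3 alone lay within the wild-type range and the other 3 lay below it. The means of 4677 ± 109 and 3870.3 ± 693 gave a log2 fold change of -0.29 (SE 0.11, 95% confidence interval -0.54 to -0.04), which missed the threshold (limma adjusted p = 0.0835). Without library M3 it passed, at -0.40 (adjusted p = 0.00523).

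Tgfb2 (ENSMUSG00000039239, chromosome 1), the ligand that depends most on betaglycan, did not separate. It was at 1445, 1125, 1118 and 1132 normalized counts in wild-type M0 to M3 and at 1228, 1058, 914 and 1583 in Lgr6-null M0, M2, M3 and M4. The Lgr6-null libraries lay on both sides of the wild-type ones. The log2 fold change was -0.03 (SE 0.16, 95% confidence interval -0.38 to 0.32, limma adjusted p = 0.908).

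Lgr6-null M3 and M4 stood at opposite ends for the ligands. M3 had the highest Tgfb1 and the lowest Tgfb3 and Tgfb2 of its genotype, and M4 the lowest Tgfb1 and the highest Tgfb3 and Tgfb2. M3 also had the highest macrophage marker sum, 633236, and M4 the lowest of its genotype, 419353. M3 was the deepest library as well, at 21135173 reads, and M4 the shallowest, at 7629968. With the mean macrophage marker level as a covariate, the log2 fold change of Tgfb3 was 1.57 (limma adjusted p = 0.0142) and that of Tgfb1 was -0.75 (adjusted p = 0.00964). That covariate did not overlap between genotypes, at 12.95 to 13.54 in Lgr6-null against 12.53 to 12.73 in wild-type. The part of marker level or depth in the ligand values was not tested.

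Within a library the makeup of the ligand pool does not depend on scaling between libraries. Per kilobase of exon, Tgfb3 made up 20.2%, 22.9%, 24.0% and 28.4% of the summed level of the 3 ligands in wild-type M0 to M3. In Lgr6-null M0, M2, M3 and M4 its share was 37.0%, 39.4%, 25.4% and 49.1%. Of these, 3 lay above every wild-type share, and that of M3 lay within their range. The share of Tgfb1 averaged 62.2% ± 2.13 in wild-type and 49.3% ± 11.7 in Lgr6-null (SD, n = 4 each), also with overlap. In M4 Tgfb3 was the leading ligand per kilobase of exon, since Tgfb1 held 35.4% there. Per kilobase of coding length Tgfb1 was ahead in M4, at 40.3% against 39.7% for Tgfb3. Shares were described and not tested.

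**Figure D3:**
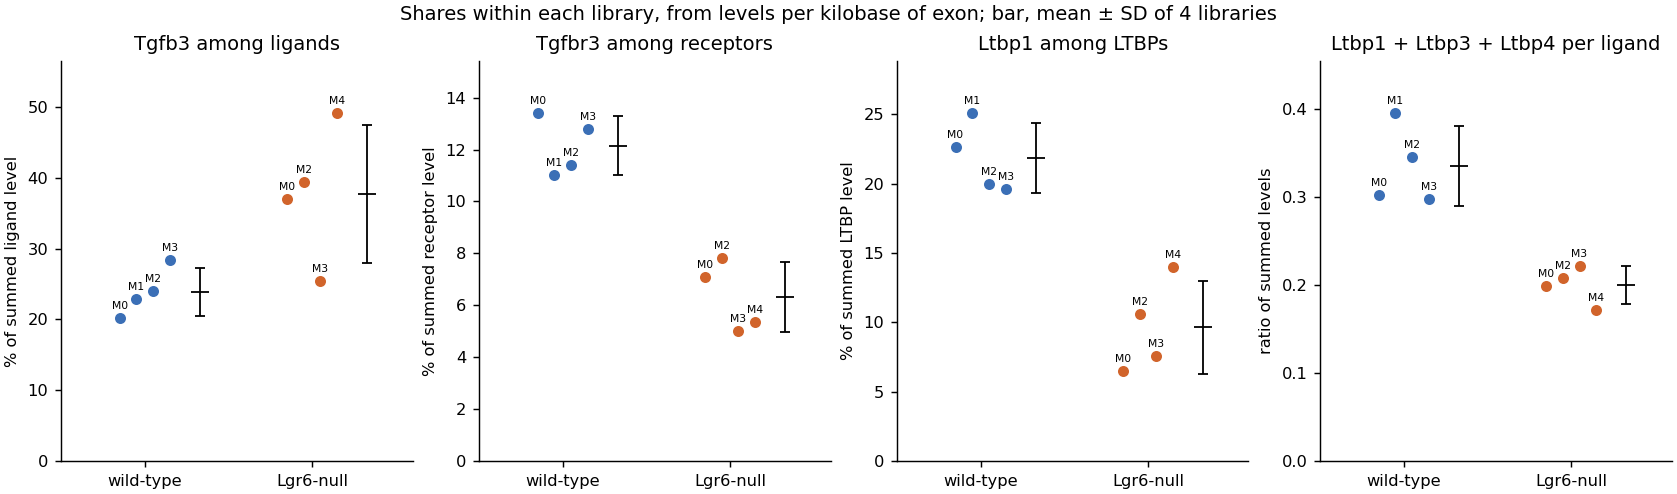
Share of Tgfb3 in the summed ligand level, of Tgfbr3 in the summed receptor level and of Ltbp1 in the summed LTBP level (percent), and the ratio of the summed Ltbp1, Ltbp3 and Ltbp4 level to the summed ligand level, from normalized counts per kilobase of exon (points, libraries; bar, mean ± SD of 4). The Tgfb3 share overlaps between genotypes, and the other measures are lower in all 4 Lgr6-null libraries than in all 4 wild-type libraries.

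Of the receptors, the type II receptor was higher and betaglycan lower in Lgr6-null, while the type I receptor was not called. Tgfbr2 (ENSMUSG00000032440, chromosome 9) encodes the kinase that binds ligand directly. Its wild-type values were 5722, 6137, 6805 and 6370 normalized counts in M0 to M3. Its Lgr6-null values were 10812, 8079, 11046 and 11199 in M0, M2, M3 and M4. All 4 Lgr6-null libraries lay above all 4 wild-type libraries, with M2 the closest to them. The means were 6259 ± 453 and 10284 ± 1479 (SD, n = 4 each), a log2 fold change of 0.71 (SE 0.11, 95% confidence interval 0.46 to 0.95, limma adjusted p = 0.00160). The call was lost when libraries were scaled to pan-mesenchymal genes (0.28, adjusted p = 0.197). With the macrophage covariate it was lost too (0.51, adjusted p = 0.178). Macrophages carry this receptor as stromal cells do, and beyond that covariate the part of the higher macrophage marker level in this result was not tested.

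Tgfbr3 (ENSMUSG00000029287, chromosome 5) was at 1019, 878, 990 and 1024 normalized counts in wild-type M0 to M3. In Lgr6-null M0, M2, M3 and M4 it was at 880, 736, 600 and 622. The genotypes overlapped by the narrowest of margins, since Lgr6-null M0 lay just above wild-type M1, and the other 3 Lgr6-null libraries lay below every wild-type one. Means of 978 ± 68.4 and 709.6 ± 128 gave a log2 fold change of -0.48 (SE 0.12, 95% confidence interval -0.74 to -0.21, limma adjusted p = 0.0158). With the macrophage covariate it was -0.42 (adjusted p = 0.323). Tgfbr1 (ENSMUSG00000007613, chromosome 4), the kinase that phosphorylates SMAD2 and SMAD3, had wild-type values of 2087 ± 164 and Lgr6-null values of 2424 ± 360.1, with overlap and no call (0.21, SE 0.11, 95% confidence interval -0.03 to 0.44, adjusted p = 0.183).

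The makeup of the receptor pool separated the genotypes. Per kilobase of exon, betaglycan made up 13.4%, 11.0%, 11.4% and 12.8% of the summed receptor level in wild-type M0 to M3 and 7.10%, 7.83%, 5.00% and 5.35% in Lgr6-null M0, M2, M3 and M4. Every Lgr6-null share was lower than every wild-type share. The share of Tgfbr2 went the other way, with a wild-type mean of 62.0% ± 1.47 and an Lgr6-null mean of 72.2% ± 3.75 (SD, n = 4 each), again with no overlap. Its level per Tgfbr1 level was 2.27, 2.24, 2.41 and 2.68 in wild-type M0 to M3 and 3.02, 2.92, 3.43 and 4.33 in Lgr6-null M0, M2, M3 and M4, so that the ratio was higher in all 4 Lgr6-null libraries.

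Ltbp1 (ENSMUSG00000001870, chromosome 17), which anchors the large latent complex in the matrix, had the largest fold change of the 10 genes. It stood at 2544, 3443, 2674 and 2514 normalized counts in wild-type M0 to M3. In Lgr6-null M0, M2, M3 and M4 it stood at 939, 1109, 1052 and 1252. Each Lgr6-null library was below the lowest wild-type library by a wide gap, and the shallow library M4 was the nearest. The means were 2794 ± 438 and 1088 ± 130.5 (SD, n = 4 each), a log2 fold change of -1.36 (SE 0.12, 95% confidence interval -1.62 to -1.09, limma adjusted p = 5.55e-05), or 2.57-fold lower. It was called lower under all 21 alternatives tried, with log2 fold changes from -1.78 to -1.08.

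RefSeq lists 2 separate starts for Ltbp1, which give a long and a short form of the protein. The gene-level counts do not tell them apart. The 250 bases before each are shown with that before Tgfbr2, since these are the genes whose genotypes did not overlap. The sequences are RefSeq's for GRCm38.p6, 5′ to 3′ toward the start: Ltbp1 upstream start at chr17:75005279-75005528 and Ltbp1 downstream start at chr17:75178531-75178780, both on the plus strand, and Tgfbr2 at chr9:116175364-116175613 on the minus strand. Capitals mark matches to any of 5 motifs searched on both strands: TGACGTCA, the cAMP response element, TGANTCA, an AP-1 site, CAGAC, a Smad box, TGTGGT, a RUNX site, and CACGTG, an E-box.
Ltbp1 upstream start: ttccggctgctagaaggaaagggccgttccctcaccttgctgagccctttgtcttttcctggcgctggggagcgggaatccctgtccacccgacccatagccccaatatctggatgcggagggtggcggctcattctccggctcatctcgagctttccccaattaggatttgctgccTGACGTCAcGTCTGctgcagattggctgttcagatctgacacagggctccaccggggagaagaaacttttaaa
Ltbp1 downstream start: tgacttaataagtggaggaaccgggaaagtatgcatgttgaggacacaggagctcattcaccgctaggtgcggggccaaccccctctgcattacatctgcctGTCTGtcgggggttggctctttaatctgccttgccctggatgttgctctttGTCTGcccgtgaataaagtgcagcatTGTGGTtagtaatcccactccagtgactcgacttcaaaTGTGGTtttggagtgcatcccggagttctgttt
Tgfbr2: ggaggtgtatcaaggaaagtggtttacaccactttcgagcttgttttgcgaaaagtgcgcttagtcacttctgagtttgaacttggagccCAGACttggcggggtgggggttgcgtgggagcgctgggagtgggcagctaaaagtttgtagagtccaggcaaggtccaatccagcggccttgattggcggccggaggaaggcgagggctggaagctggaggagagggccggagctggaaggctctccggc

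The window of the upstream Ltbp1 start held 1 TGACGTCA, a motif found in 1.55% of all 32851 windows of this length, and 1 CAGAC, read here on the other strand and found in 42.2%. The window of the downstream start held 2 CAGAC and 2 TGTGGT, the latter found in 14.0% of windows. The Tgfbr2 window held 1 CAGAC. None of the 3 held TGANTCA (6.75% of windows) or CACGTG (6.02%). Of the 10 genes, 8 had at least 1 window, 12 windows in all. A match is a run of letters and no evidence of binding.

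The other LTBPs were not called. Ltbp2 (ENSMUSG00000002020, chromosome 12), which sits on fibrillin without latent TGF-β, was at 4865, 5807, 6157 and 5989 normalized counts in wild-type M0 to M3 and at 8586, 5469, 7975 and 4391 in Lgr6-null M0, M2, M3 and M4. Lgr6-null M0 and M3 lay above the wild-type range and M4 below it. The log2 fold change was 0.16 (SE 0.20, 95% confidence interval -0.27 to 0.60, limma adjusted p = 0.591). Ltbp3 (ENSMUSG00000024940, chromosome 19), which has a part in skeletal growth, ranged from 1730 to 2063 in wild-type and from 1455 to 1979 in Lgr6-null, with a log2 fold change of -0.14 (SE 0.10, adjusted p = 0.344). Ltbp4 (ENSMUSG00000040488, chromosome 7), better known from elastic tissues, was the scarcest of the 10 genes, with 85 to 197 reads per library. It was at 183, 161, 152 and 141 in wild-type and at 80.2, 128, 91.4 and 162 in Lgr6-null, where M4 alone reached the wild-type range. Its log2 fold change was -0.51 (SE 0.21, 95% confidence interval -0.98 to -0.04, adjusted p = 0.108), and without M4 it was called lower (-0.69, adjusted p = 0.0209).

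Ltbp1 made up 22.6%, 25.1%, 20.0% and 19.6% of the summed LTBP level per kilobase of exon in wild-type M0 to M3. In Lgr6-null M0, M2, M3 and M4 it made up 6.47%, 10.6%, 7.54% and 14.0%. No Lgr6-null share reached the wild-type range. The share of Ltbp2 was 58.3% ± 2.81 in wild-type and 71.0% ± 6.12 in Lgr6-null (SD, n = 4 each), higher in all 4 Lgr6-null libraries. The 3 LTBPs that bind latent TGF-β, Ltbp1, Ltbp3 and Ltbp4, were then set against the 3 ligands. Their summed level per ligand level was 0.302, 0.395, 0.345 and 0.298 in wild-type M0 to M3 and 0.199, 0.208, 0.222 and 0.172 in Lgr6-null M0, M2, M3 and M4. The ratio was lower in all 4 Lgr6-null libraries. It is a ratio of RNA levels and says nothing of protein or of how much ligand was bound.

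The order of the 10 genes by level per kilobase of exon changed with genotype. In wild-type it ran Tgfb1 (928 ± 21.7 normalized counts per kilobase), Tgfbr2 (764 ± 55.3), Ltbp2 (697 ± 70.6), Tgfb3 (357 ± 60.1), Tgfbr1 (319 ± 25.1), Ltbp1 (261 ± 41.0), Ltbp3 (213 ± 17.1), Tgfb2 (208 ± 27.7), Tgfbr3 (149 ± 10.4) and Ltbp4 (24.6 ± 2.75; SD, n = 4 throughout). The libraries of these neighbours overlapped between Tgfbr2 and Ltbp2, Tgfb3 and Tgfbr1, Tgfbr1 and Ltbp1, and Ltbp3 and Tgfb2, and were apart for the rest. In Lgr6-null Tgfbr2 came first at 1256 ± 181, before Ltbp2 (807 ± 244), Tgfb1 (768 ± 138), Tgfb3 (603 ± 200.5), Tgfbr1 (371 ± 55.1), Tgfb2 (206 ± 49.7), Ltbp3 (194 ± 25.1), Tgfbr3 (108 ± 19.6), Ltbp1 (102 ± 12.2) and Ltbp4 (17.9 ± 5.77). There the neighbours from Tgfbr2 down to Tgfbr1 overlapped, as did Tgfb2 with Ltbp3 and Tgfbr3 with Ltbp1, and the rest were apart. By this measure Ltbp1 was thus sixth in wild-type and ninth in Lgr6-null. The order depends on the length used. Ltbp1 has 10.7 kilobases of exon and 5.26 of coding sequence, and Tgfb2 has 5.79 and 1.33. The order per kilobase of coding length was not drawn up.

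**Figure D4:**
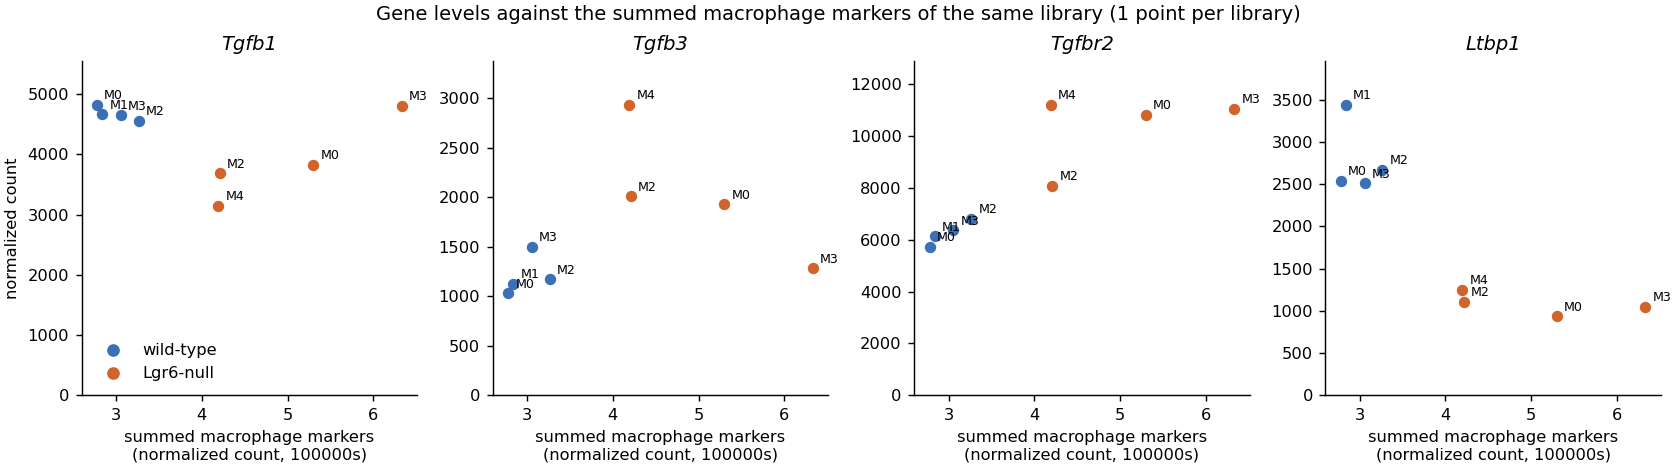
Normalized count of genes of the TGF-β group against the summed normalized count of 18 macrophage markers in each library (points, coloured by genotype). The summed markers run from 277726 to 326196 in wild-type and 419353 to 633236 in Lgr6-null, so genotype and marker level do not overlap and move together.

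The genes most like Ltbp1 over the 8 libraries, by Pearson correlation of log2 levels among 11575 genes, were Marveld1 (0.996), a membrane protein, Fabp3 (0.993), a fatty acid binding protein, and Ddx1 (0.992), an RNA helicase. All were lower in Lgr6-null, with log2 fold changes of -0.57, -1.28 and -0.36. In all, 776 genes had a correlation over 0.9. The libraries share genotype, culture makeup and scaling, and the correlation is given as a description.

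Other genes of the pathway came from 6 lists. Of 85 genes tested of 88 listed, 23 were higher and 18 lower in Lgr6-null, 48.2% where 25.7% of all genes tested were called. The lists were chosen with earlier results of these data known. Their shares therefore cannot show an excess over all genes, and no test of one was run. Their median log2 fold change was 0.04. The genotypes did not overlap for 39 of them, against 29.1% of all genes tested. The summed macrophage markers were higher in every Lgr6-null library. Counts with their mean as a covariate are given for each list, and their part beyond that was not tested. Over all genes 327 were then higher and 487 lower, against 1855 and 1821 without the covariate. With scaling to all or to abundant pan-mesenchymal genes, 425 or 461 of all genes were higher and 5403 or 5661 lower. The counts per list stand beside these.

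Proteins that release or hold latent TGF-β moved in both directions: of 14 tested, 5 were higher and 2 lower (median log2 fold change 0.17, against 0.00 for all genes), and 2 and 1 with the macrophage covariate. Bmp1, a protease that cleaves LTBP1 and frees the latent complex from the matrix, fell from 6138 ± 601 to 3760.1 ± 496 (limma: log2 fold change -0.71, SE 0.10, adjusted p = 0.00113). Mmp2, a gelatinase, fell from 9504 ± 958 to 6904 ± 992 (-0.47, SE 0.11, adjusted p = 0.0139), and was at -0.02 with the covariate. Its relative Mmp9 rose from 42.7 ± 17.2 to 106 ± 18.0 (1.37, SE 0.29, adjusted p = 0.00805). Itgb5, a partner of integrin αv, rose from 7180 ± 104 to 8923 ± 573 (0.31, SE 0.06, adjusted p = 0.00674), but was at -0.11 with scaling to pan-mesenchymal genes. The other rises, named after their values were seen, were Itgb8 (0.98), the partner of αv that opens latent TGF-β without force, and Lrrc32 (0.47) and Nrros (0.43), which hold latent TGF-β on the cell surface, Nrros on macrophages and microglia. Leaving out 1 library gave 2 to 6 higher and 2 lower, with 2 higher without wild-type M1 and 4 without the shallow M4. With scaling to all or to abundant pan-mesenchymal genes, 1 or 2 were higher and 4 lower.

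Of 12 matrix partners of the latent complex, 4 were higher and 3 lower (median 0.14), and 0 and 2 with the macrophage covariate. With either scaling to pan-mesenchymal genes 2 were higher and 5 lower. The fibrillin Fbn1, to whose fibres LTBP1 attaches, rose from 5225 ± 1147 to 10076 ± 1544 normalized counts (limma: log2 fold change 0.96, SE 0.16, adjusted p = 0.00188). The fibulin Fbln2 rose from 4641 ± 1059 to 11033 ± 2115 (1.25, SE 0.18). Emilin1, which restrains processing of the TGF-β1 precursor, fell from 4156 ± 91.1 to 2822 ± 283 (-0.56, SE 0.08, adjusted p = 0.000667). Efemp2, the fibulin that LTBP1 and lysyl oxidase bind, fell from 3603 ± 232 to 2411 ± 237 (-0.58, SE 0.08, adjusted p = 0.000855). Fibronectin, Fn1, which Ltbp1 needs for its first deposition, was at 0.07 and not called. With the covariate the calls of Fbn1 (0.90, adjusted p = 0.123) and Fbln2 (0.77, adjusted p = 0.192) were lost, while those of Emilin1 and Efemp2 held under all alternatives tried.

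Of 6 co-receptors and Smads, 1 was higher and 0 lower (median -0.06), against 25.7% called over all genes tested, and 0 and 0 with the macrophage covariate. With scaling to all or to abundant pan-mesenchymal genes 0 were higher and 4 or 5 lower. The type I receptor Acvrl1 went from 674 ± 27.6 to 836 ± 101 (limma: log2 fold change 0.30, SE 0.09, adjusted p = 0.0312), a rise that was at -0.12 with scaling to pan-mesenchymal genes and lost its call when any 1 of 5 libraries was left out. Smad2 (0.02), Smad3 (-0.05) and Smad4 (-0.06), named after their values were seen, were not called. In the related activin branch 0 of 10 tested genes were higher and 1 was lower, Gdf11, from 316 ± 19.7 to 251 ± 17.5 (-0.33, SE 0.09, adjusted p = 0.0189), and with the covariate 1 was higher and 0 lower. With scaling to all or to abundant pan-mesenchymal genes 0 were higher and 4 or 3 lower.

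Among 19 inhibitors and feedback genes, 5 were higher and 4 lower (median -0.11), and 1 and 2 with the macrophage covariate. With scaling to all or to abundant pan-mesenchymal genes 1 and 2 were higher and 10 lower each time, and with scaling to the same total 8 were higher and 4 lower. Without wild-type M0 or M2, 3 were higher. The 3 largest called changes were falls. The 5 rises, named after their values were seen, were Aspn (log2 fold change 1.27), Dcn (0.80), Pmepa1 (0.64), Nedd4l (0.28) and Ski (0.25). Bambi, a decoy receptor without a kinase, fell from 1605 ± 402 to 280.4 ± 103 normalized counts (limma: log2 fold change -2.57, SE 0.30, adjusted p = 0.000299). Fmod, a small proteoglycan of collagen that binds TGF-β, fell from 11275 ± 621 to 3291 ± 1001 (-1.84, SE 0.22). Cd109, a membrane-anchored co-receptor that dampens the response, fell from 1977 ± 345 to 688 ± 139 (-1.53, SE 0.16). Vasn, which binds and traps TGF-β, fell from 2301 ± 84.2 to 1461 ± 182 (-0.66, SE 0.09). The falls of Bambi and Cd109 kept their call under all alternatives tried, and those of Fmod and Vasn lost it with the covariate (adjusted p = 0.0706 and 0.117). Markers of osteoblasts, which also make Fmod, were lower in all 4 Lgr6-null libraries, and their part in the Fmod value was not tested.

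Of 24 known target genes tested, 8 were higher and 8 lower (median 0.09), where 25.7% of all genes tested were called. With the macrophage covariate 1 was higher and 0 lower, beside 327 and 487 of all 14294 genes tested. Scaling to all pan-mesenchymal genes left 2 higher and 12 lower, and scaling to the abundant ones 2 and 11. Over all genes these scalings gave 425 and 461 higher and 5403 and 5661 lower, so the move toward falls was not particular to the targets. Ccn2, a matricellular protein, rose from 7602 ± 879 to 11212 ± 582 (limma: log2 fold change 0.57, SE 0.09, adjusted p = 0.00191), a call lost with scaling to pan-mesenchymal genes (0.14, adjusted p = 0.520). Klf10, an early response factor, fell from 841 ± 60.4 to 636 ± 41.2 (-0.40, SE 0.07, adjusted p = 0.00396). Tnc, tenascin C, fell from 37394 ± 3462 to 15100 ± 3815 (-1.34, SE 0.17), and Lox, lysyl oxidase, from 35744 ± 4753 to 22037 ± 915 (-0.69, SE 0.11). Smooth muscle actin, Acta2, named after its values were seen, rose (1.10). Leaving out 1 library gave 4 to 8 higher and 8 lower, with 4 higher without Lgr6-null M0 and 6 without M4.

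**Figure D5:**
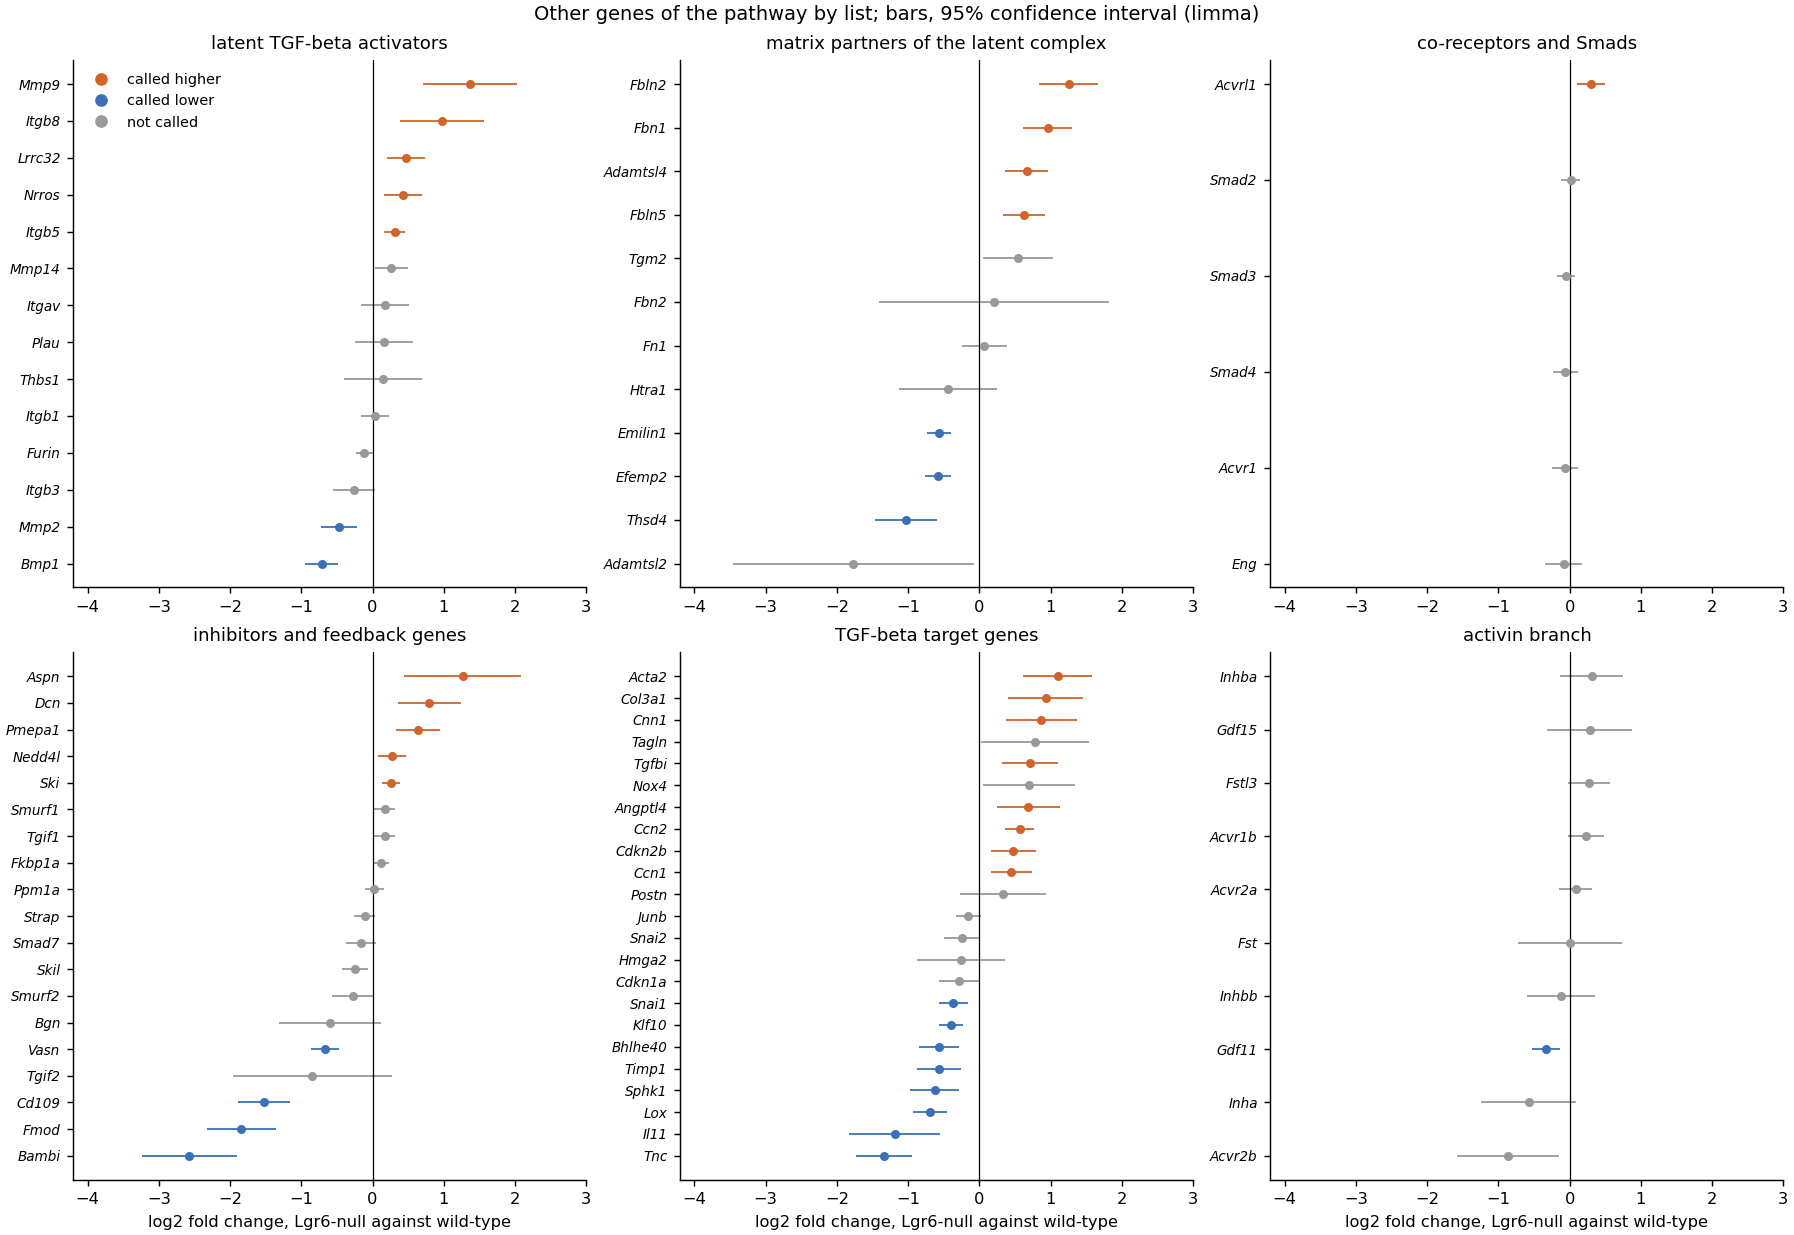
log2 fold change of tested genes in the 6 pathway lists, Lgr6-null against wild-type (1 target gene, counted as not called, is not drawn), on the scale of log2(normalized count + 1), with calls marked by colour. With the deposited scaling, calls lie on both sides of 0 in the activators (5 higher, 2 lower), matrix partners (4 and 3), inhibitors (5 and 4) and targets (8 and 8), and the core of co-receptors and Smads has 1.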

How the data were processed

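The authors deposited a signal per gene and library, read counts normalized by size factors, for 19460 genes. Tools named in the submitters' processing notes are DESeq2, HTSeq 0.13.5 and HISAT2 2.1.1, with GRCm39 as the build, and the labels name a stranded mRNA kit. For the counting, annotation and strand setting were not given in the sources used here. All values in each column (100%) were whole multiples of 1 step within 0.01 read, so whole reads were recovered, and the lowest total of a gene was 11 reads. Symbols, exon lengths and codons came from GENCODE M21 (GRCm38) by gene identifier, with 19361 matched and 99 not, and promoters from RefSeq (GRCm38.p6).

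Columns were assigned to genotypes by name. Their numbers (M0 to M3 in wild-type columns, and in Lgr6-null columns M0 and M2 to M4) could not be tied to replicate numbers in the titles. Libraries of a genotype differed by more than sampling noise (chi-square per degree of freedom at least 6.75).

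On R 4.3.3, limma 3.58.1 with its trend option was run on log2(normalized count + 1) without covariates, which understates changes of low genes. Genes at 10 or more in at least 4 libraries were tested, and p-values were adjusted over all 14294. Confidence intervals are 95%. Levels per kilobase used union exon length. The limma fit was tested on simulated data drawn for this comparison (14118 genes tested), with 75, 74 and 50 genes changed 1.5-fold, 2-fold and 4-fold. It recovered 54.7%, 77.0% and 98% of these and called 7 unchanged genes. Far more genes were called in the real data, so these rates may not carry over to it.

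Alternatives were a pseudocount of 0.5 or of 5, a filter at a mean of 50 or none, scaling to equal totals or to pan-mesenchymal genes, quantile normalization, sample weights, a replicate block, a macrophage marker covariate, each library left out, and edgeR 4.0.16 (quasi-likelihood) and DESeq2 1.42.0 on whole reads. edgeR called 1997 genes higher and 1752 lower. Scaling to the 12 pan-mesenchymal genes whose mean reached 500, and coding length in place of exon length, were chosen after seeing the data. The coding length of RefSeq proteins was planned and not run.

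The 10 genes, 6 pathway lists and 11 marker lists were chosen with earlier results of these data known. For 1 target gene, counted in its list, values are not reported here. Named genes were Lgr6, the 10 genes, up to 4 called genes of smallest p per pathway list (or the smallest p where none was called), the 3 genes most like the one with the largest change, and the most abundant gene of each marker list.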

Additional observations from a re-analysis of the deposited data

Results flagged for a closer look

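Within each genotype, the highest and lowest library was compared with the nearest of the other 3 for 55 genes or shares, 110 groups in all. In 8 of them the gap, as a part of the range, exceeded Dixon's 95% critical value for 4 samples, which chance exceeds in about 1 in 20 groups.

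Among the TGF-β genes, Tgfb2 stood at 1445 normalized counts in wild-type M0 and at 1118 to 1132 in the other 3 wild-type libraries. Tgfbr2 stood at 8079 in Lgr6-null M2 and at 10812 to 11199 in the others of that genotype. The share of Ltbp4 in the summed LTBP level was 2.69% in wild-type M0 and 1.82% to 1.94% in the others.

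Wild-type M0 also stood apart for the fibulin Efemp2, at 3258 against 3674 to 3740, and for the TGF-β trap Vasn, at 2427 against 2251 to 2266. Acvrl1 was at 715 in wild-type M3 and at 658 to 666 in the others. Lox was at 42845 in wild-type M1 and at 32845 to 33878 in the others. Ddx1, an RNA helicase, was at 1651 in Lgr6-null M4 and at 1595 to 1603 in the others.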

How the results depend on the processing

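Of the 10 genes, 2 were called higher and 2 lower by limma, edgeR and DESeq2, and Ltbp1 was called lower under all 21 alternatives. Scaling mattered most for the rises. Scaling to all pan-mesenchymal genes, or to the abundant ones, shifted the median over all genes, 0.00 on the log2 scale, to -0.42 and -0.34, and scaling to the same total moved it to 0.09. Under both mesenchymal scalings 0 of the 10 genes were higher and 6 lower (Tgfb1, Tgfb2, Tgfbr3, Ltbp1, Ltbp3 and Ltbp4), with Tgfb1 at -0.71 (limma adjusted p = 0.00151) in the first. Over all genes 425 and 461 were then higher and 5403 and 5661 lower, against 1855 and 1821. Scaling to the same total called 2892 higher and 1281 lower. Itgb5 turned to -0.11 and -0.035 (limma adjusted p = 0.620 and 0.848), and Acvrl1 to -0.12 and -0.043 (adjusted p = 0.592 and 0.810). The cause was not tested.

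Same-numbered libraries deviated with correlations of -0.01, -0.12 and 0.03, and the other pairs across genotypes with -0.11 to 0.13. These values cannot settle whether same-numbered libraries share more than a number. With that number as a replicate block 937 genes were higher and 1021 lower, and of the 10 genes 1 each, Tgfbr2 and Ltbp1. The contrast in that fit rested on M0, M2 and M3 of each genotype, since wild-type M1 and Lgr6-null M4 have no same-numbered partner. Tgfb3 was then at 0.49 (adjusted p = 0.209) and Tgfbr3 at -0.47 (adjusted p = 0.0609). Under the block 2 activators were higher and 2 lower, 2 and 4 inhibitors, and 3 and 6 target genes.

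With the macrophage covariate 327 genes were higher and 487 lower, and of the 10 genes 1 was higher (Tgfb3) and 2 lower (Tgfb1 and Ltbp1). That covariate moves with genotype, so little independent variation is left to the contrast. Leaving out each library gave 1280 to 1797 genes higher and 1286 to 1764 lower, with 1 to 2 of the 10 genes higher and 2 to 3 lower. Lgr6 then ran from -4.22 to -3.93.

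Per kilobase of coding length, the wild-type share was 17.9% for Tgfb3, 65.5% for Tgfb1, 67.5% for Tgfbr2 (76.1% in Lgr6-null), 7.36% for Tgfbr3 (3.71%) and 25.3% for Ltbp1. The ratio of LTBPs to ligands was 0.194 (0.124 in Lgr6-null). Which shares overlapped did not change. Leaving out each library moved the Tgfb3 share between 33.9% and 41.8% in Lgr6-null and between 22.4% and 25.1% in wild-type. The Tgfb1 share ran from 44.4% to 53.9% and from 61.7% to 63.2%, that of Tgfbr2 from 70.7% to 73.4% and from 61.4% to 62.6%, and that of Tgfbr3 from 5.82% to 6.76% and from 11.7% to 12.5%. The Ltbp1 share ran from 8.19% to 10.7% and from 20.8% to 22.6%, and the ratio from 0.193 to 0.209 and from 0.315 to 0.348. Depth limits Ltbp4 most, with 85 reads in its lowest library.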

Other observations

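Markers of other cell types were summed in the same way, and their calls stand beside 25.7% called over all genes tested. Osteoclast markers, led by Ctsk, the cathepsin that degrades bone collagen, summed to 3100 to 3843 normalized counts in Lgr6-null and to 5100 to 5960 in wild-type, and 3 of 5 tested were lower in limma. Pan-mesenchymal markers, led by Fstl1, summed to 60341 to 83859 and 56113 to 60827, with 4 of 13 higher and 1 lower. Smooth muscle and pericyte markers, led by Cspg4, summed to 4241 to 7129 and 5636 to 8894, with 2 of 7 higher and 2 lower. Cspg4 weighed most on the wild-type sum (mean 742 in Lgr6-null against 4178 in wild-type). The mean log2 level of these markers overlapped, at 7.64 to 8.52 against 7.23 to 8.28. Adipocyte markers, led by Lpl, summed to 746 to 2015 and 2218 to 5836, with 2 of 5 lower.

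Platelet factor Pf4 led the lymphoid, erythroid and megakaryocyte markers, which summed to 2562 to 3284 and 944 to 2237, with 2 of 3 tested higher. Chondrocyte markers, led by Col2a1, summed to 6692 to 9221 and 6466 to 11245, with 2 of 5 lower. Their sums overlapped, but their mean log2 level did not, at 4.96 to 5.33 in Lgr6-null against 6.24 to 6.54 in wild-type. Endothelial markers, led by Kdr, stayed between 121 and 202 in all libraries, with 1 of 5 higher and 1 lower. Granulocyte markers, led by S100a8, stayed between 25 and 224, and 1 was tested and not called. Of 8 marrow stromal markers, 2 were higher and 1 lower. The part of these cell types in the TGF-β values was not tested.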
